A study of Mus musculus with 9 samples.

Results

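The 35 genes described here encode scaffolds and signalling proteins of the postsynaptic density, with receptors left out. They were chosen by name, with earlier results of these data known. Each matched a single row among the 22255 genes of the deposited table. RNA was sequenced from hippocampal synaptoneurosomes, a brain fraction enriched in pinched-off synaptic terminals. All 9 samples came from Fmr1 knockout (KO) mice of strain C57Bl/6J, a model of fragile X syndrome. The 4 samples of the treated group, lettered A, B, C and E, came from mice given AM6545 sub-chronically. AM6545 is an antagonist of the cannabinoid receptor CB1 that enters the brain poorly. The 5 vehicle samples, lettered A to E, carried the same knockout, and no wild-type or untreated group is analysed here. Dose, age and sex, and whether tissue was pooled, are not given in the sources used here, so p-values measure the spread between these samples, whatever its source. The comparison asks whether these synaptic transcripts differed after peripheral CB1 blockade.

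The postsynaptic density is a protein lattice under the membrane of excitatory synapses. MAGUK proteins hold glutamate receptors through PDZ domains, DLGAP proteins link them to SHANK proteins, and SHANK proteins connect the lattice to the actin of the dendritic spine. Calcium entering through receptors acts on calmodulin and CaMKII, and regulators of small GTPases set spine shape. Several of these mRNAs, among them Camk2a, Shank1, Dlgap3 and Ddn, are known to be carried into dendrites. FMRP, the protein lost in Fmr1 knockout mice, binds many mRNAs of postsynaptic proteins, including Camk2a and Dlg4.

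Levels are given as CPM, estimated counts per 1000000 counts of a library after TMM scaling between libraries. The libraries held 17628922 to 27263393 counts. Reads assigned to Fmr1 were low but present in all libraries, at 10.3, 9.45, 9.57 and 11.1 CPM in AM6545 A, B, C and E and at 13.3, 11.0, 10.3, 11.9 and 12.2 CPM in vehicle A to E. Its level differed by -0.22 on the log2 scale (SE 0.11, adjusted p = 0.653 by edgeR's quasi-likelihood test), so the groups were not separated by the targeted gene, and it cannot be set against an intact allele. Every defining marker listed for 14 cell types and regions had counts in at least some samples. Markers of excitatory neurons summed to 1340 to 1690 CPM in AM6545 samples and to 1260 to 1493 CPM in vehicle samples. Glial RNA was present too, with 8 oligodendrocyte markers summing to between 10780 and 22530 CPM across the samples. Since these are bulk fractions, fewer cells of a type and less RNA per cell cannot be told apart.

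All 35 genes passed the filter on low counts, and none changed past the threshold. Of 14512 genes tested over the whole table with edgeR's quasi-likelihood test, 0 had an adjusted p under 0.05 (0% of all tested genes), and 0 of the 35 did. DESeq2 and limma-voom also called 0 of the 35. At an unadjusted p under 0.05, 2 postsynaptic genes were higher after AM6545, Begain and Dlgap2, and 0 were lower. Over all tested genes 7.21% reached that level, 3.03% higher and 4.18% lower, so the share of 2 in 35 was near the background. The CPM ranges of the groups overlapped for all 35 genes, where 1.45% of all tested genes had ranges that did not overlap, 0.579% higher and 0.868% lower after AM6545.

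Fold changes leaned to the higher side and were small. The log2 fold change was above 0 for 27 of the 35 genes and below 0 for 8, against 48.2% above 0 and 51.8% below 0 over all tested genes. The median was 0.09 for the 35 genes and -0.01 for all tested genes. Because the genes were chosen with earlier results of these data known, this lean is a description and not a test. Members ran from -0.17 for Nrgn to 0.33 for Begain. In 9 of the 35 genes all 4 AM6545 samples lay above the vehicle mean (Shank3, Dlgap1, Dlgap2, Dlgap3, Lrrtm1, Camk2a, Akap5, Sipa1l1 and Begain), where 9.73% of all tested genes did so. In Nrgn alone of the 35, all 4 lay below it, as did 19.8% of all tested genes. For 34 of the 35 genes the 95% interval of the fold change stayed within 1.5-fold in either direction, which held for 73.5% of all tested genes. Camk2b was the exception, with an interval from 0.992-fold to 1.52-fold. The median level was 54.9 CPM for the 35 genes and 20.6 CPM for all tested genes, and its part in the interval widths was not tested.

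**Figure D1:**
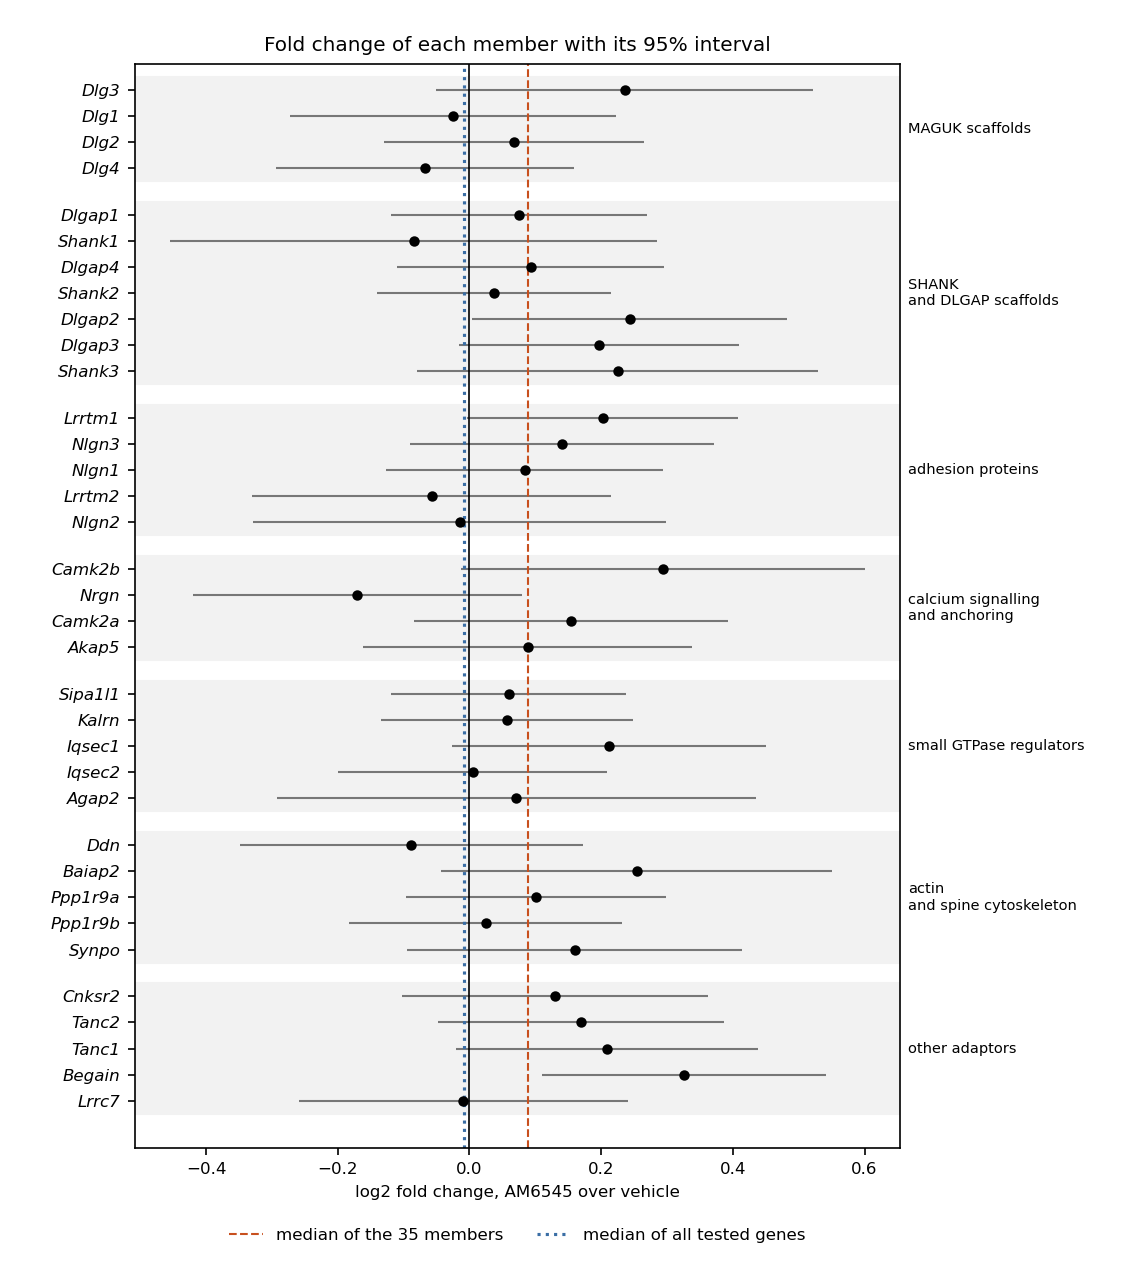
Log2 fold change of AM6545 over vehicle for each of the 35 genes, grouped by role, as points with 95% intervals from edgeR's quasi-likelihood fit; dashed and dotted lines mark the medians of the 35 genes (0.09) and of all tested genes (-0.01). The intervals of Begain and Dlgap2 lie to the right of 0 and the other 33 include it.

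Transcript length differed between these genes and the rest of the table. The median transcript length was 4234 bases for the 35 genes and 2254.5 bases for all tested genes with a length. Across 14494 tested genes the log2 fold change was correlated with length (Spearman rho = 0.237) and with GC content (rho = 0.316). Among the 35 genes themselves rho was -0.109 for length and 0.0345 for GC content. These are descriptions across genes, which share libraries and are not independent. With each sample's trend with length removed, the median of the 35 genes was 0.05 and 25 were higher. With the trends with length and GC content both removed, it was 0.04 and 23 were higher. A list of 45 other postsynaptic genes, described below, had a median of 0.07 with no trend removed, and 32 were higher. That median was 0.09 with 28 higher after removing the length trend, and 0.07 with 33 higher after removing both.

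Marker lists of other cells were read beside these genes. All 7 choroid plexus markers and all 5 ependymal markers had fold changes below 0. The choroid plexus sum ran from 455.9 to 3541 CPM in AM6545 samples and from 311 to 10890 CPM in vehicle samples, and the ependymal sum from 13.8 to 16.7 and from 13.7 to 31.1 CPM. All 5 CA1 pyramidal cell markers had fold changes above 0, with sums of 377 to 431 CPM in AM6545 samples and 292 to 396 CPM in vehicle samples. None of these markers passed the threshold (edgeR quasi-likelihood smallest adjusted p = 0.653 in each of these 3 lists). Their part in the postsynaptic values was not tested.

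**Figure D2:**
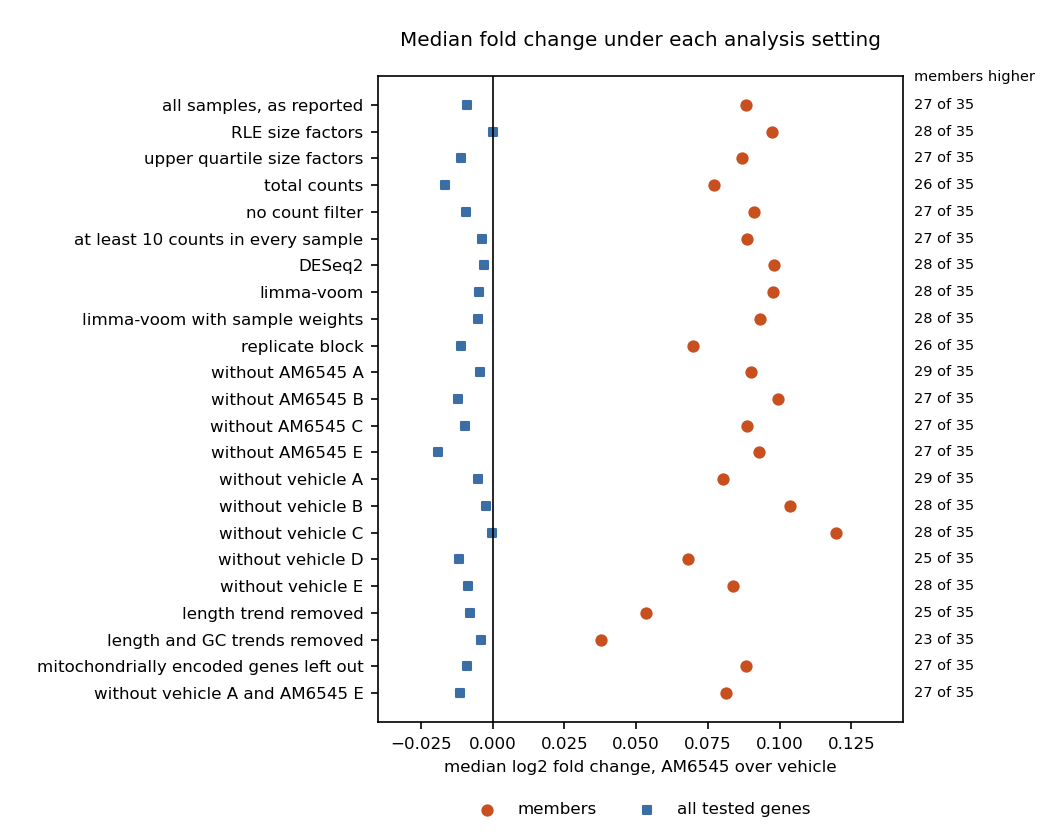
Median log2 fold change of the 35 genes (circles) and of all tested genes (squares) under each way of analysing the table, with the number of the 35 genes above 0 at the right. The median of the 35 genes stays above that of all tested genes in each setting shown, and is lowest, at 0.04, with the length and GC trends removed.

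Transcript abundance among the 35 genes spanned a wide range. Per kilobase of transcript, neurogranin (Nrgn), a calmodulin-binding protein, stood highest in vehicle samples at 484 ± 64.8 CPM per kilobase (SD, n = 5). Camk2b followed at 391 ± 62.2, Camk2a at 262 ± 34.8, Ddn at 170 ± 26.0 and Dlgap1 at 121 ± 6.14 CPM per kilobase (SD, n = 5 each). With the median transcript lengths defined below, the spreads of Nrgn and Camk2b overlapped. Their order on that scale is not settled by these spreads and was not tested. At the bottom were Shank3, at 2.71 ± 0.502, and Agap2, at 0.693 ± 0.105 CPM per kilobase (SD, n = 5 each). Length here is a gene's median protein-coding transcript length in GENCODE M21, and for some genes that choice decides the level. With the longest such transcript instead, Camk2a stood at 71.5 CPM per kilobase, below Ddn at 93.2 and Lrrtm1 at 76.3. Dlg4 went from 26.6 to 3.92 CPM per kilobase, or from rank 10 to rank 30 among the 35, and Tanc2 from 23.1 to 4.36, or from rank 11 to rank 28. Nrgn, Camk2b, Shank3 and Agap2 kept ranks 1, 2, 34 and 35 under both lengths. With the longest transcript, Nrgn stood at 484 ± 64.8 and Camk2b at 187 ± 29.8 CPM per kilobase (SD, n = 5 each).

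**Figure D3:**
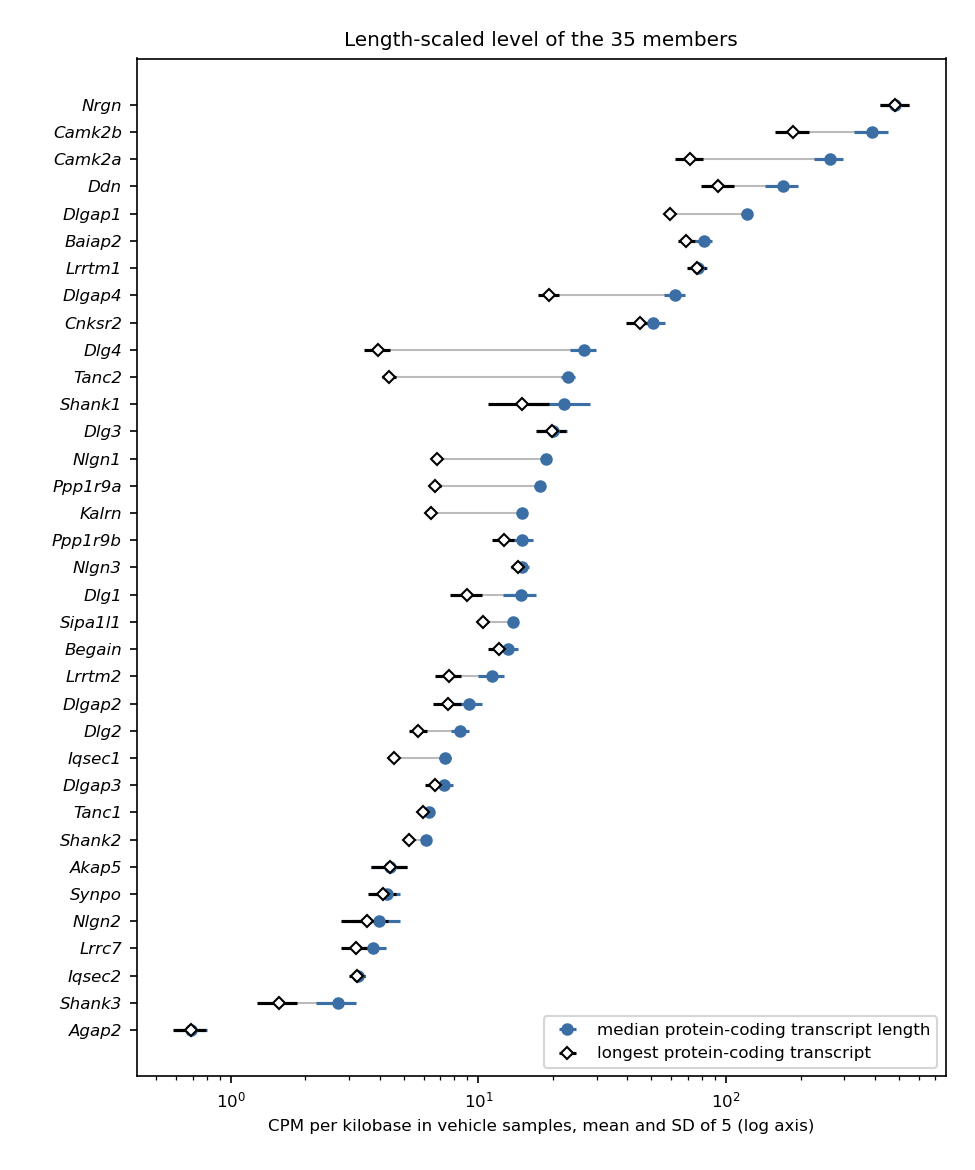
Level of each of the 35 genes in vehicle samples as CPM per kilobase on a log axis (mean and SD of 5 samples), with the median protein-coding transcript length (filled) and the longest protein-coding transcript (open). Nrgn is highest at 484 and Agap2 lowest at 0.693 on the first scale, and Dlg4 and Tanc2 move furthest between the scales.

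Nrgn had the highest mean level per kilobase in vehicle samples, and Begain had the smallest p. Their upstream sequences are shown as context for their promoters. They are the 250 bases before the annotated start, 5′ to 3′ on the strand of the gene, from RefSeq on GRCm38.p6. Capitals mark the GC box, GGGCGG, or its reverse complement CCGCCC. The window of Nrgn is chr9:37552746-37552995 on the minus strand, and that of Begain, the first listed of its 5 start sites, is chr12:109068243-109068492 on the minus strand.
Nrgn: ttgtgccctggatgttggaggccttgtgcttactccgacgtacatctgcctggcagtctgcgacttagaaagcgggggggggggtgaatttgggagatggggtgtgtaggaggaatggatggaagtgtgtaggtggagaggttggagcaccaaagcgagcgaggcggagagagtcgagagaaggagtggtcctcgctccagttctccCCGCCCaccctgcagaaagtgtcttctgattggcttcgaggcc
Begain: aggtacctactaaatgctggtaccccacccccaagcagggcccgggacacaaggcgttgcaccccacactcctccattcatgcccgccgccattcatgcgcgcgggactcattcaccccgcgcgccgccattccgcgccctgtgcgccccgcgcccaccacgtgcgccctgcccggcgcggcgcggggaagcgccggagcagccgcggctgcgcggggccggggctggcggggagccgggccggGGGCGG

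Both windows held 1 GC box, and their GC content was 58.4% for Nrgn and 76.0% for Begain. The table held 47 windows for 27 of the 35 genes. A GC box on either strand was in 28 of them, or 59.6%, against 32.7% of all 32851 windows. The TATA box letters TATAAA, on either strand, were in 4 of the 47 windows (8.51%) and in 12.4% of all windows. The palindrome TGACGTCA, the full cAMP response element, was in 0 of the 47 and in 1.55% of all windows. These are letter matches in windows that share genes, and the expression data do not measure them.

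The MAGUK scaffolds Dlg1, Dlg2, Dlg3 and Dlg4 encode SAP97, PSD-93, SAP102 and PSD-95, which anchor receptors at the synapse. Of these 4 genes, 2 had fold changes above 0 and 2 below, with a median of 0.02. Dlg4 (ENSMUSG00000020886.18) was at 22.3, 23.98, 23.3 and 24.9 CPM in AM6545 A, B, C and E and at 28.0, 26.9, 23.6, 20.4 and 25.0 CPM in vehicle A to E. The treated values sat inside the vehicle range, and the log2 fold change was -0.07 (95% interval -0.29 to 0.16). Dlg3 (ENSMUSG00000000881.13) was at 124, 138, 113 and 88.8 CPM in the treated samples and at 79.0, 114, 103, 90.9 and 106 CPM in the vehicle samples. AM6545 E fell among the lower vehicle values, while AM6545 A and B lay above all of them. Its log2 fold change was 0.24 (SE 0.13, adjusted p = 0.661 by edgeR's quasi-likelihood test). Without AM6545 B it was 0.14, and without AM6545 E it was 0.34. Dlg1 and Dlg2 had log2 fold changes of -0.03 and 0.07, with levels of 46.4 to 68.5 and 40.4 to 50.2 CPM over the 9 samples. In M21 a transcript of Dlg4 shares a stretch of at most 200 bases, at least 95% identical, with transcripts of 50 other genes, so part of its count is uncertain.

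**Figure D4:**
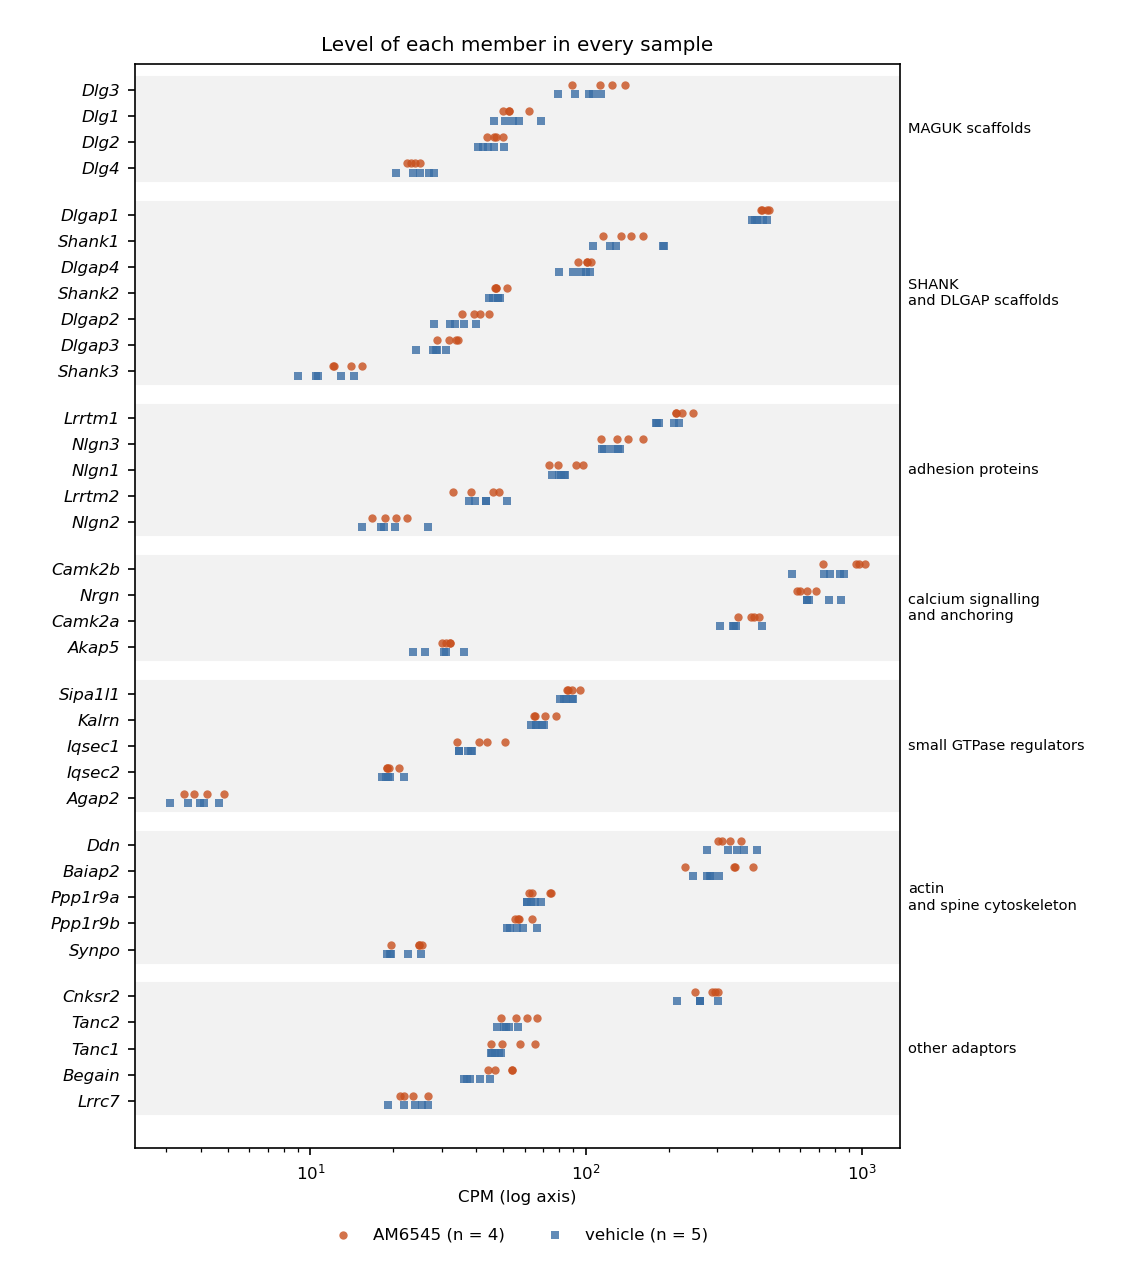
CPM of each of the 35 genes in every sample on a log axis, grouped by role, with AM6545 samples as circles (n = 4) and vehicle samples as squares (n = 5). The ranges of the groups overlap in every row, and levels run from about 3.09 CPM (Agap2 in vehicle D) to 1031 CPM (Camk2b in AM6545 B).

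SHANK and DLGAP proteins form the deeper layer of the scaffold. Of these 7 genes, 6 had fold changes above 0 and 1 below, with a median of 0.09. Dlgap1 (ENSMUSG00000003279.18), which encodes the PSD-95 binding protein GKAP, was the most abundant of them, at 462, 433, 455 and 437 CPM in AM6545 A, B, C and E. In vehicle A to E it was at 402, 439, 454, 416 and 410.5 CPM, a tight spread in both groups. Its log2 fold change was 0.08 (95% interval -0.12 to 0.27). Dlgap2 (ENSMUSG00000047495.16) was at 41.4, 44.6, 35.6 and 39.2 CPM after AM6545 and at 28.0, 40.0, 36.1, 32.2 and 33.4 CPM after vehicle. All 4 treated samples exceeded the vehicle mean, but AM6545 C and E lay under vehicle B. The log2 fold change of Dlgap2 was 0.24 (SE 0.11, unadjusted p = 0.0465, adjusted p = 0.653 by edgeR's quasi-likelihood test).

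Dlgap3, Dlgap4 and Shank2 had log2 fold changes of 0.20, 0.09 and 0.04. Shank3, whose human counterpart is the gene of Phelan-McDermid syndrome, was low, with 11.5 ± 2.12 CPM (SD, n = 5) after vehicle and 13.4 ± 1.59 CPM (SD, n = 4) after AM6545. The log2 fold change of Shank3 was 0.22 (SE 0.14). Shank1 varied most among the 35 genes. It was at 190.3 and 193 CPM in vehicle A and D and at 128, 122 and 106 CPM in vehicle B, C and E. AM6545 A, C and E, at 134, 146 and 162 CPM, fell between these, and AM6545 B, at 115 CPM, lay among the lower vehicle values. Its coefficient of variation in vehicle was 27.6%, where counting error alone gives 1.74%, and the log2 fold change of -0.09 had an interval from -0.46 to 0.29. Shank2 by contrast varied by 3.85% in vehicle, close to its counting error of 3.07%. Shank1 overlaps the gene 1700008O03Rik on the opposite strand and shares 343 bases with it, so some of its reads cannot be assigned with certainty.

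Adhesion proteins bridge the synaptic cleft to presynaptic neurexins. Nlgn1, Nlgn2 and Nlgn3 encode neuroligins, of which neuroligin 2 is known at inhibitory synapses, and Lrrtm1 and Lrrtm2 encode leucine-rich repeat proteins of excitatory synapses. Of these 5 genes, 3 had fold changes above 0 and 2 below, with a median of 0.08. Lrrtm1 (ENSMUSG00000060780.3) had both the highest length-scaled level and the smallest p of the group. It was at 212, 224, 245 and 211.5 CPM in AM6545 A, B, C and E and at 181, 208, 183, 217 and 179.8 CPM in vehicle A to E. Vehicle D reached into the treated range and the other vehicle samples lay below it, for a log2 fold change of 0.20 (SE 0.10, adjusted p = 0.653 by edgeR's quasi-likelihood test). Nlgn3, Nlgn1, Nlgn2 and Lrrtm2 had log2 fold changes of 0.14, 0.08, -0.01 and -0.06. That of Nlgn3 was 0.22 without AM6545 B and 0.05 without AM6545 E. Nlgn2 stood apart in vehicle A with 26.7 CPM, where the other 8 samples ran from 15.4 to 22.4 CPM. Exons of Lrrtm1 and Lrrtm2 overlap those of Ctnna2 and Ctnna1 on the opposite strand in M21, and the strand setting of the counting is not given in the sources used here.

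Calcium signalling and anchoring genes were the most abundant group. Camk2a and Camk2b encode the alpha and beta subunits of CaMKII, the kinase of synaptic plasticity, and Akap5 encodes AKAP79/150, which anchors kinases and phosphatases at the membrane. Camk2b (ENSMUSG00000057897.15) was at 955, 1031, 978.5 and 722 CPM in AM6545 A, B, C and E and at 560, 864.5, 771, 728 and 834 CPM in vehicle A to E. AM6545 A, B and C exceeded all vehicle samples, while AM6545 E lay below every vehicle sample but A. The log2 fold change was 0.29 (SE 0.14, adjusted p = 0.653 by edgeR's quasi-likelihood test). It was 0.21 without vehicle A and 0.40 without AM6545 E. Camk2a was at 396 ± 28.1 CPM (SD, n = 4) after AM6545 and 355.5 ± 47.2 CPM (SD, n = 5) after vehicle. Its log2 fold change was 0.15 (SE 0.11), with 0.24 without vehicle B and 0.10 without vehicle E.

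Nrgn (ENSMUSG00000053310.12) went the other way. It was at 684, 632, 584 and 597 CPM in AM6545 A, B, C and E and at 762, 642, 840.1, 636 and 632 CPM in vehicle A to E. Vehicle A and C stood high and the other vehicle samples lay within the treated range. The log2 fold change was -0.17 (SE 0.12, adjusted p = 0.692 by edgeR's quasi-likelihood test). It was -0.10 without vehicle C, -0.22 without AM6545 A and -0.07 with sample weights in limma-voom. Akap5 had a log2 fold change of 0.09, with treated values of 30.1 to 32.1 CPM inside a vehicle range of 23.6 to 36.1 CPM.

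All 5 regulators of small GTPases had fold changes above 0, with a median of 0.06 and none past the threshold. Kalrn encodes kalirin, an exchange factor for Rac1 and RhoA that promotes spine growth. Kalrn (ENSMUSG00000061751.17) was at 71.1, 77.8, 65.1 and 64.5 CPM in AM6545 A, B, C and E and at 65.6, 70.6, 62.9, 66.0 and 69.3 CPM in vehicle A to E. Apart from AM6545 A and B, the treated values lay inside the vehicle range, for a log2 fold change of 0.06 (SE 0.09). Iqsec1 (ENSMUSG00000034312.16), an exchange factor for ARF6, was at 43.7, 51.0, 40.9 and 34.0 CPM after AM6545 and at 34.6, 38.1, 37.3, 34.5 and 38.6 CPM after vehicle. AM6545 A, B and C exceeded all vehicle values, and AM6545 E was below them all. Its log2 fold change was 0.21 (SE 0.11, adjusted p = 0.653 by edgeR's quasi-likelihood test). It was 0.11 without AM6545 B, 0.30 without AM6545 E and 0.09 with the length and GC trends removed.

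Iqsec2, the X-linked paralogue of Iqsec1, differed by 0.0047 on the log2 scale (95% interval -0.20 to 0.21). Sipa1l1, which encodes the Rap regulator SPAR, had a log2 fold change of 0.06, and its interval of 0.921-fold to 1.18-fold was among the tightest. Agap2, an ARF-directed GTPase activating protein, had 67 to 127 counts in a sample. Counting error alone gives a coefficient of variation of 10.7% at that depth, against 15.1% observed in vehicle, so its log2 fold change of 0.07 (95% interval -0.29 to 0.43) is the least supported by depth.

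Spine cytoskeleton genes act between the density and actin. Ddn encodes dendrin and Synpo synaptopodin of the spine apparatus. Baiap2 encodes the membrane-bending protein IRSp53, and Ppp1r9a and Ppp1r9b encode neurabin and spinophilin. Of these 5 genes, 4 had fold changes above 0 and 1 below, with a median of 0.10. Ddn (ENSMUSG00000059213.8) was at 311.5, 302, 334 and 366 CPM in AM6545 A, B, C and E and at 417, 354, 274, 375 and 326 CPM in vehicle A to E. The treated values lay within the vehicle range, and the log2 fold change was -0.09 (SE 0.12). Baiap2 (ENSMUSG00000025372.17) was at 345.5, 402, 347 and 228 CPM after AM6545 and at 244, 303.5, 274, 281 and 284 CPM after vehicle. AM6545 E was the lowest of all 9 samples, while the other 3 treated samples were the highest. The log2 fold change of Baiap2 was 0.25 (SE 0.14, adjusted p = 0.653 by edgeR's quasi-likelihood test). It was 0.15 without AM6545 B and 0.40 without AM6545 E. Synpo, Ppp1r9a and Ppp1r9b had log2 fold changes of 0.16, 0.10 and 0.02. That of Synpo was 0.24 without AM6545 E and 0.12 without vehicle D. That of Ppp1r9a was 0.06 without AM6545 A, 0.06 without AM6545 B and 0.15 without AM6545 C.

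Among the other adaptors, 4 of 5 genes had fold changes above 0, with a median of 0.17. Cnksr2 encodes a scaffold of Ras signalling and Begain a PSD-95 binding protein. Tanc1 and Tanc2 encode ankyrin-repeat scaffolds, and Lrrc7 encodes densin-180. Begain (ENSMUSG00000040867.14) had the smallest p of the 35 genes. It was at 53.7, 53.8, 46.6 and 44.0 CPM in AM6545 A, B, C and E and at 36.2, 45.0, 37.1, 38.1 and 41.2 CPM in vehicle A to E. Vehicle B lay just above AM6545 E, and that pair alone kept the ranges from separating. The log2 fold change was 0.33 (SE 0.10, unadjusted p = 0.00595, adjusted p = 0.653 by edgeR's quasi-likelihood test). Under the alternatives the change of Begain ran from 0.15, with the length and GC trends removed, to 0.38, and its adjusted p was never under 0.320.

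Cnksr2 (ENSMUSG00000025658.17) was at 286, 295, 301 and 249 CPM after AM6545 and at 213, 259, 301, 259 and 259 CPM after vehicle. Vehicle A was the lowest and vehicle C equalled the highest treated sample, for a log2 fold change of 0.13 (SE 0.11). Without vehicle A it was 0.07, and without vehicle C it was 0.19. Tanc1 and Tanc2 had log2 fold changes of 0.21 and 0.17, and AM6545 B was the highest of the 9 samples for both. Without AM6545 B they were 0.11 and 0.10. That of Tanc1 was 0.29 without AM6545 E, and that of Tanc2 was 0.24 without AM6545 C. Lrrc7 differed by -0.0093 on the log2 scale (95% interval -0.26 to 0.24).

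Variation between samples was in most cases small. The biological coefficient of variation estimated by edgeR had a median of 11.99% over the 35 genes and 14.2% over all tested genes, and 28 of the 35 were under the latter. The 35 genes were also more abundant, with a median of 54.9 CPM against 20.6 CPM, and the part of level in this difference was not tested. It ran from 9.60% for Sipa1l1 to 18.3% for Shank1. As a share of all counts, the 35 genes took up 0.502% ± 0.0215 (SD, n = 4) after AM6545 and 0.472% ± 0.0246 (SD, n = 5) after vehicle. The share was highest in AM6545 B, at 0.521% (95% Wilson interval 0.518% to 0.524%), and lowest in vehicle A, at 0.445% (0.442% to 0.448%). The groups overlapped, since vehicle B, C and E, at 0.496%, 0.494% and 0.478%, lay above AM6545 E, at 0.473%. The intervals cover counting error only.

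Members did not all move with the same samples. Among the treated samples, AM6545 B was highest for 14 of the 35 genes and AM6545 E lowest for 12, against 29.1% and 31.8% of all tested genes. Dlg3, Dlgap4, Camk2b, Iqsec1, Kalrn, Baiap2, Tanc1 and Begain were highest in AM6545 B and lowest in AM6545 E, a pattern of 8 of the 35 genes and of 18.1% of all tested genes. Shank1, Nlgn1, Nlgn3, Lrrtm2 and Ddn, 5 of the 35, showed the opposite order, as did 18.1% of all tested genes. Both shares were near those of the whole table. Among vehicle samples, vehicle A was lowest for 10 of the 35 genes, including Camk2b, Begain and Baiap2, against 24.1% of all tested genes. Vehicle E was lowest for 9 of the 35, against 12.4% of all tested genes, and vehicle B was lowest for 1, against 18.5%. Vehicle B was highest for 12 of the 35, against 19.8% of all tested genes.

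**Figure D5:**
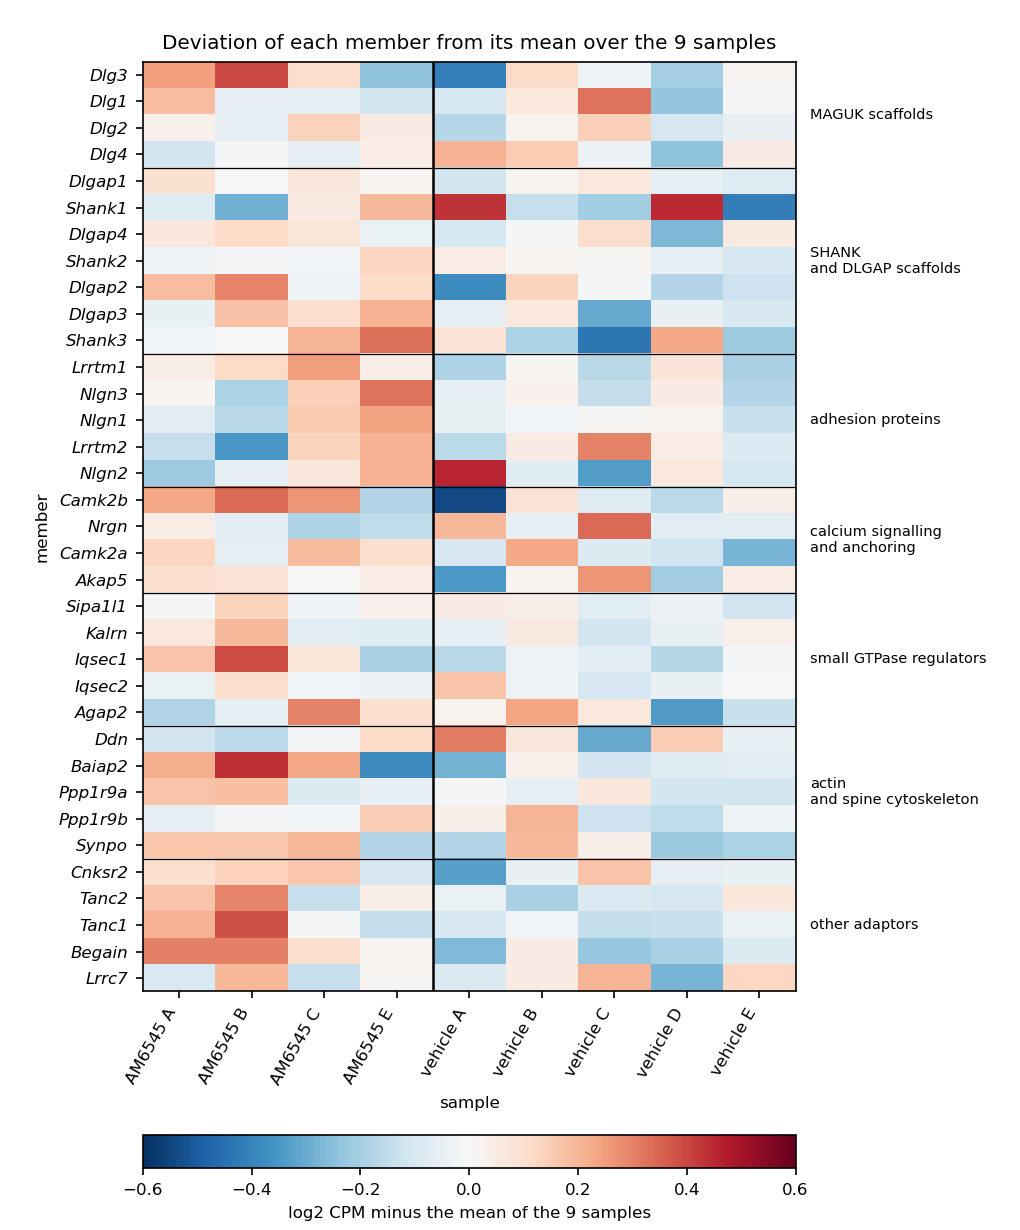
Deviation of log2 CPM from its mean over the 9 samples for each of the 35 genes (rows, grouped by role) in each sample (columns, AM6545 left of the line and vehicle right), from blue for lower to red for higher. Shank1 is high in vehicle A and D, and Camk2b, Baiap2, Iqsec1 and Begain are higher in AM6545 A and B than in AM6545 E.

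Other genes of the postsynaptic density were read from a list of 45, among them kinases, adhesion proteins and actin regulators. That list too was chosen with earlier results of these data known. All 45 passed the count filter, 32 had fold changes above 0 and 13 below, and the median was 0.07. None passed the threshold by DESeq2, limma-voom or edgeR's quasi-likelihood test (0 in each, smallest adjusted p = 0.653 in edgeR). At an unadjusted p under 0.05 in edgeR, 3 of the 45 were higher and 0 lower, near the 7.21% of all tested genes at that level (3.03% higher and 4.18% lower). The higher genes included Rasgrf1, a Ras exchange factor, and Dbn1, which encodes the actin-binding protein drebrin. Rasgrf1 was at 454, 530.2, 459 and 367 CPM in AM6545 A, B, C and E and at 262, 403, 398, 374 and 342 CPM in vehicle A to E, a log2 fold change of 0.35 (SE 0.14). Dbn1 was at 327, 358, 309 and 246 CPM after AM6545 and at 205, 303, 244.5, 257 and 253 CPM after vehicle, a log2 fold change of 0.30 (SE 0.13). In both genes AM6545 E was the lowest treated sample and lay within the vehicle range, and vehicle A was the lowest of the 9 samples.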

How the data were processed

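RNA-seq of 9 hippocampal synaptoneurosome samples was analysed (per the labels' protocols, SMARTer Ultra Low Input libraries and an Illumina NovaSeq). The authors deposited estimated counts per gene, which are not scaled between samples. Salmon 1.3 and DESeq2 1.30, with the builds GRCm39 and mm10, are named in the submitters' processing notes without their roles, and annotation release and strand setting are not given in the sources used here. Symbols, by identifier without version, and lengths came from GENCODE M21. Its identifier versions differ for all 35 members, so no gene coordinates are given from it. The coordinates of the Nrgn and Begain promoter windows came from RefSeq.

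Counts were rounded, filtered with filterByExpr and TMM-scaled. The main test was edgeR's quasi-likelihood test (edgeR 4.0.16 in R 4.3.3), adjusted by Benjamini-Hochberg over all tested genes, with a threshold of 0.05. Standard errors were derived from the size of the fold change and its F statistic. The script was tested on simulated data. All 36 sample pairs differed by more than sampling noise, with a chi-square statistic of 10.03 or more times its degrees of freedom. Similar transcripts were sought with blastn. Alternatives used DESeq2 1.42.0, limma 3.58.1, other size factors and filters, a replicate block, sample removal and trend removal.

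The members and lists were chosen with earlier results of these data known. Values in every sample are given, per role, for the member with the highest length-scaled level and the member with the smallest p, and for members with an unadjusted p under 0.05 or separated ranges. Fmr1 and, of the 3 other postsynaptic genes with the smallest p, Rasgrf1 and Dbn1 are also named, and the remaining one is not reported here. Summed markers of astrocytes, oligodendrocyte precursors, microglia, endothelial and mural cells, inhibitory interneurons, dentate granule and CA3 cells and striatum were read too. The sums were not tested, and 0 of the single marker genes tested from these lists passed the threshold.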

Additional observations from a re-analysis of the deposited data

Results flagged for a closer look

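Dixon's ratio, the gap of an extreme sample to its neighbour over the range of its group, was computed for the 35 genes, Fmr1 and the mean level of the 35 genes. It passed its 95% critical value in 2 of 74 sets, where chance gives about 1 in 20, or 3.7. Both were AM6545 E. Shank2 was at 51.84 CPM there, and AM6545 A, B and C ran from 46.6 to 47.2 CPM (ratio 0.891). Synpo was at 19.55 CPM there, and the others ran from 24.8 to 25.4 CPM (ratio 0.904). Without AM6545 E the log2 fold change of Shank2 was 0, against 0.04 with all samples, and that of Synpo was 0.24, against 0.16.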

How the results depend on the processing

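Over 22 alternatives, 1 of them (leaving out vehicle A and AM6545 E together) chosen after seeing the data, 0 of the 35 genes and 0 of the other postsynaptic genes passed the threshold. Over all genes 0 passed except without AM6545 A, where 1 did, so leaving out samples gave 0 to 1. The median of the 35 genes stayed above 0, from 0.07 to 0.12 with a sample left out, and was 0.0378 with length and GC trends removed. Members at an unadjusted p under 0.05 numbered 2 with all samples and 0 to 10 over the alternatives. There were 0 with length and GC trends removed, where 4.53% of all tested genes reached that level. There was 1 with total counts, the replicate block or at least 10 counts in every sample (7.01%, 5.23% and 7.54% of all tested genes). Leaving out AM6545 B, vehicle A or vehicle E also gave 1 (4.38%, 3.43% and 6.54%). There were 7 without AM6545 E and 6 without vehicle B (12.6% and 12.5%). Sample weights in limma-voom gave 10 (12.6%), and leaving out vehicle A and AM6545 E together gave 6 (8.59%).

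The letters are not stated to pair the samples in the sources used here. Same-letter deviations correlated at -0.0212 to 0.336, and C alone of the 4 shared letters correlated best with its own. The highest correlation between the groups was for different letters, AM6545 E with vehicle A, at 0.351. These correlations do not settle whether samples with the same letter belong together. With the letter as a replicate block the median was 0.07 and 0 genes passed.

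In 24 of the 35 genes the direction held under all alternatives, and 11 changed sign in at least 1. With length and GC trends removed these were Agap2 (-0.0881), Dlg1 (5e-04), Dlgap1 (-0.0067), Iqsec2 (-0.1317), Kalrn (-0.0204), Lrrtm2 (0.008), Ppp1r9b (-0.1216) and Shank2 (-0.0467), while Sipa1l1 (3e-04), Dlgap3 (0.0048), Synpo (0.0378), Shank3 (0.0485), Baiap2 (0.1275), Dlgap2 (0.1312), Lrrtm1 (0.1215) and Begain (0.1527) kept their sign at smaller values. With the length trend alone removed, Iqsec2 (-0.0309) and Ppp1r9b (-0.0234) changed sign. Under the replicate block they were Agap2 (-0.0056), Iqsec2 (-0.0044), Nlgn2 (0.0172), Ppp1r9b (-0.0072) and Shank1 (0.0536). Sample weights turned Dlg1 (0.0613), Ppp1r9b (-0.0129) and Shank1 (0.0281), limma-voom Nlgn2 (0.0092), DESeq2 Lrrc7 (9e-04), RLE size factors Lrrc7 (0) and total counts Iqsec2 (-0.0024). Without vehicle A and AM6545 E, Nlgn2 was at 0.0414 and Ppp1r9b at -0.0106. With single samples left out, values ran from -0.0232 to 0.1531 in Agap2, -0.0934 to 0.0623 in Dlg1, -0.0302 to 0.0489 in Iqsec2, -4e-04 to 0.0928 in Kalrn, -0.081 to 0.0422 in Lrrc7, -0.1433 to 0.0384 in Lrrtm2, -0.0906 to 0.1134 in Nlgn2, -0.0224 to 0.0881 in Ppp1r9b and -0.1848 to 0.029 in Shank1. The cause of these changes was not tested. Depth limits Agap2 most, with 67 counts in its lowest sample.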

Other observations

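Count ratios between paralogues do not depend on the scaling between libraries, and they are given without a test. Their ranges in the groups overlapped for all pairs named here. The ratio of Camk2a to Camk2b counts was 0.438 ± 0.0841 (SD, n = 4) after AM6545 and 0.482 ± 0.0908 (SD, n = 5) after vehicle. It was highest in vehicle A, at 0.618, and lowest in AM6545 B, at 0.346. The ratio of Nlgn3 to Nlgn1 was 1.60 ± 0.0619 (SD, n = 4) against 1.54 ± 0.0809 (SD, n = 5), and that of Tanc2 to Tanc1 was 1.08 ± 0.108 (SD, n = 4) against 1.10 ± 0.0809 (SD, n = 5). Lrrtm1 to Lrrtm2 was at 5.51 ± 1.006 (SD, n = 4) against 4.55 ± 0.578 (SD, n = 5), with AM6545 E, at 4.36, inside the vehicle range. The ratio of Shank1 to Shank2 ran from 2.38 in vehicle E to 4.21 in vehicle D, a wider range than the 2.44 to 3.12 of the treated samples.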
